A study of Mus musculus with 12 samples.

Results

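The response to NOTCH2NLC-(GGC)98 that the ubiquitous and the cardiomyocyte-specific mouse model share was described here by comparing 6 transgenic with 6 control hearts, which are all 12 hearts of the series, with the model kept as a block. E2a-tg hearts at postnatal day 30 came from mice in which the ubiquitous E2a-Cre removes a stop sequence in front of the human repeat transgene at Rosa26, and E2a-control hearts came from littermates that carry the conditional transgene without E2a-Cre. Myh6-tg hearts at day 90 are labelled as those of mice with Myh6-creERT2, a Cre of cardiomyocytes that acts after tamoxifen, given in 3 injections of 75 mg/kg from day 60, and Myh6-control hearts carry the same genotype tag and are labelled as given corn oil. Reads of Esr1, given with the depth of the libraries, go against this genotype in the Myh6-tg hearts, so that Myh6-tg and Myh6-control stand here for the libraries labelled so. The 4 groups held 3 hearts each, so that model stands for age, Cre driver and injection together, while E2a-Cre in one model and tamoxifen in the other cannot be told apart from the transgene.

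NOTCH2NLC with expanded GGC repeats causes neuronal intranuclear inclusion disease. The repeat is translated into a polyglycine protein that collects in inclusions positive for ubiquitin and p62. Heart muscle lives on oxidation of fatty acids in mitochondria, and its cells contract by calcium release through the sarcoplasmic reticulum. Under sustained stress the adult heart typically returns to parts of its fetal expression program while fibroblasts lay down matrix.

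Each heart had between 38343106 and 50969834 counts (whole reads assigned to a gene), so that a floor of 3 counts lay at 0.0589 to 0.0782 CPM, the unit in which every library is scaled to the same total. The genes of the mitochondrial genome took 34.2 to 36.7% of the counts in E2a-control, 28.5 to 32.3% in E2a-tg, 31.8 to 38.3% in Myh6-control and 15.5 to 18.6% in Myh6-tg hearts, and levels below are therefore CPM normalised by TMM factors. Hearts of a group differed by more than sampling noise (chi-square per gene between 22.1 and 325), so that none was counted as a repeat of another. Y-linked genes had summed counts of 4224 to 7307 in the replicate 1 hearts, and of 2 or fewer in all other hearts. By these reads replicate 1 was the only male heart of each group, so that the replicate number also carries sex. The genotype tags of E2a-tg replicates 2 and 3 differ from that of replicate 1, and the extraction text of the labels names brain. The markers of cardiomyocytes summed to between 10600 and 64100 CPM in these hearts, against 9.46 to 45.0 CPM for 10 brain markers, of which Neurod6 and Mog had at most 3 counts in every heart. Esr1, whose ligand-binding part is built into tamoxifen-inducible Cre proteins, measured 1.23, 0.677 and 0.408 in E2a-control, 1.23, 0.616 and 1.02 in E2a-tg, 2330, 1380 and 1030 in Myh6-control and 1.3, 2.52 and 1 in Myh6-tg hearts. The Myh6-tg hearts thus lay at the level of the E2a hearts and not near the Myh6-control hearts, although by the labels both Myh6 groups carry a Cre of this kind. These values put the labels or the genotypes of the Myh6 groups in doubt, and each Myh6 direction and the shared fit rest on those labels. With the labels as given, Sqstm1 was higher in all Myh6-tg hearts (1780 to 2010 CPM) than in Myh6-control hearts (446 to 941), as it was in E2a-tg against E2a-control hearts, and of the 2230 genes with an unadjusted p under 0.05 in each model 2129 changed in the same direction in both. The transcript of the transgene, which would check the labels directly, was not analysed here.

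The shared response was broad. In the additive fit of 15929 genes, 495 genes were higher (3.11%) and 471 lower (2.96%) in transgenic hearts at an adjusted p under 0.01 (edgeR's quasi-likelihood test, Benjamini-Hochberg) with a log2 change of 1 or more in size. The higher genes held 10 of 21 cardiac stress genes, 6 of 15 targets of NRF2, a factor of the oxidative stress response, and 21 of 60 matrix genes, and the lower genes 7 of 26 genes of contraction and calcium cycling, 6 of 37 ion channel genes and 10 of 43 genes of fat and ketone use. Of the 966 genes, 965 changed in the same direction in both models, and the remaining one, the unannotated locus NewGene_5519, had a within-model change of 0 in E2a. An unadjusted p under 0.05 in each model was reached by 456 of the higher and 431 of the lower genes. Over all genes tested, 1084 (6.81%) rose and 1045 (6.56%) fell with such a p in each model, which includes genes that the additive fit did not call. These 2 counts were 602 and 552 without E2a-tg replicate 3, and the second was 672 without E2a-tg replicate 1 and 686 without E2a-control replicate 1. Transgenic and control hearts did not overlap in either model for 381 of the higher and 444 of the lower genes, against 7.83% and 9.39% of all genes tested. The called genes were picked on these same hearts. Their shared direction, within-model p and separation therefore describe the calls and are no test of them.

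An additive term can also pass through one model alone. A stricter test took the larger p of each gene over the 2 within-model contrasts, which have no heart in common, and adjusted it over all genes. It called 0 genes (0.0%) at an adjusted p under 0.05 in edgeR, with a smallest value of 0.0554 held by 8 loci, among them Serpina3n, Apod, Srxn1, Prg4, Sprr1a and Lox, and with 111 genes under 0.1. DESeq2 called 530 genes by the same rule. The edgeR count rose from 0 to 271 without E2a-tg replicate 2, to 316 without Myh6-tg replicate 1 and to 1 without E2a-control replicate 2. Hence the genes described below are those of the additive fit.

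The number of calls depended on single hearts, on scale and on the replicate number. With that number as a block within model it was 426 (219 higher, 207 lower), and the blocked count of a list is given where it differs by more than 1.5 times. It fell from 966 to 404 without E2a-tg replicate 3, to 474 without Myh6-tg replicate 2, to 488 without Myh6-control replicate 1 and to 547 without Myh6-tg replicate 3, and higher genes alone from 495 to 311 without Myh6-control replicate 3. Of 71 called genes that were named by rule, 44 were called with any 1 heart left out, among them Serpina3n, Srxn1, Hmox1, Sqstm1, Cdkn1a, Xirp2, Thbs1, Mmp3, Scn4b, Apln, Aplnr, Dgat2, Oxct1, Hk2, Ccnd1 and Ccnd2. The call was lost without E2a-tg replicate 3 or Myh6-tg replicate 2 for Atp2a2, Myl3, Cpt2 and Ndufb2. It was lost without most single hearts for Mylk4, Gpt, Hsp90aa1, Gtse1, Cacna1s, mt-Nd3 and Cthrc1. On the deposited FPKM values (limma on log2(FPKM + 1)) 602 of 790 called genes were higher, or 76.2% against 51.2% in the count fit, while the median over all genes moved from 0.03 to 0.24. List medians given below on the FPKM scale are to be read against this 0.24.

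The size of the response in each heart was read from the called genes as the median deviation from the mean of the model's own controls, which describes the fit and is no test of it. For the 495 higher genes this median was 1.09, 0.657 and 1.30 (log2) in the 3 E2a-tg hearts and 1.46, 1.73 and 1.77 in the 3 Myh6-tg hearts. For the 471 lower genes it was -1.08, -0.547 and -1.25 in E2a-tg and -1.35, -1.79 and -1.90 in Myh6-tg hearts. E2a-tg replicate 2 lay closest to its controls on both sides, and Myh6-tg replicate 1 was the closest of its group. The Myh6 change was the larger in size for 357 of the 495 higher and 437 of the 471 lower genes. The 2 changes differed at an adjusted p under 0.05 (edgeR, difference of the contrasts) for 46 of the 495 higher and 75 of the 471 lower genes. Both are larger shares than the 624 of all 15929 genes tested.

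**Figure D1:**
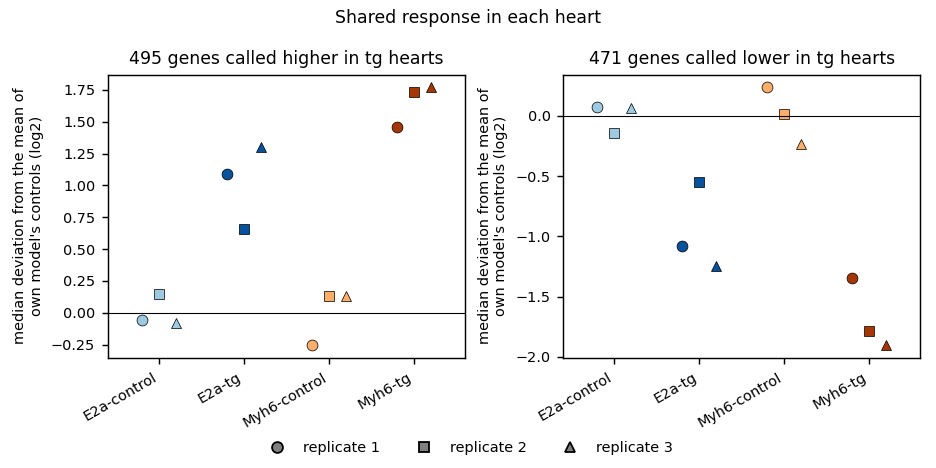
Median deviation (log2) of each heart from the mean of its own model's control hearts over the 495 genes called higher (left) and the 471 called lower (right) in transgenic hearts; symbols mark replicate numbers. All transgenic hearts lie beyond their controls, E2a-tg replicate 2 least, at 0.657 and -0.547.

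**Figure D2:**
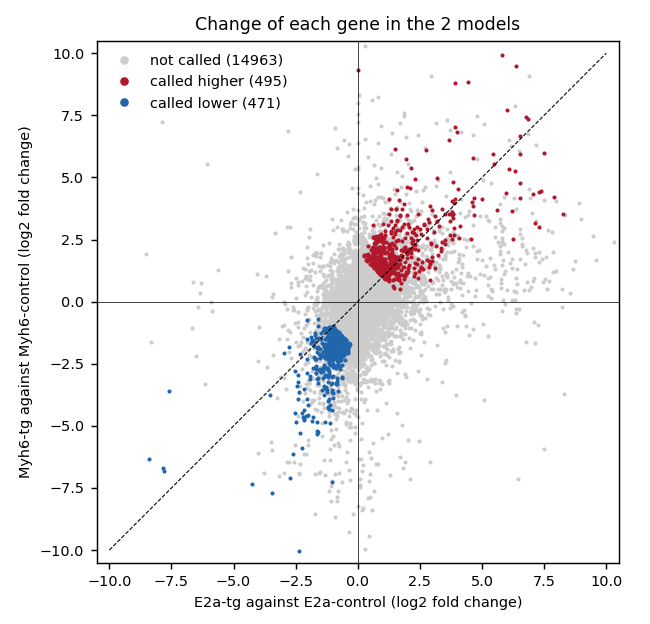
Log2 fold change of each of 15929 genes in E2a-tg against E2a-control (horizontal) and in Myh6-tg against Myh6-control hearts (vertical), with 3 genes outside the axes and equal changes on the dashed line. Apart from NewGene_5519, the 495 red and 471 blue genes lie in the quadrants of shared direction, and most blue genes lie below the line, where the fall was larger in Myh6.

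Genes were called at all levels of expression, but in smaller shares at low levels. Among the 1248 genes with a mean over 100 CPM, 69 were higher (5.53%) and 72 lower (5.77%). Of the 2830 genes under 1 CPM, 1.48% were higher and 0.495% lower. The median level was 14.1 CPM for higher, 15.4 CPM for lower and 12.1 CPM for all genes tested. By the annotation 436 of the higher and 412 of the lower genes were protein-coding, and 57 and 59 were NewGene loci.

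The largest shared rises included Serpina3n, Sprr1a, Tnnt3, Gpnmb and Lgals3. They were taken in order of the smaller of the 2 within-model changes, among called genes with a mean of at least 5 CPM whose groups did not overlap in either model. Serpina3n (chr12:104406729-104414329, GRCm38), an inhibitor of serine proteases secreted in acute-phase responses, measured 6.88, 9.2 and 4.76 in E2a-control, 227, 48.8 and 246 in E2a-tg, 50, 46.2 and 56.7 in Myh6-control and 884, 600 and 717 in Myh6-tg hearts (normalised CPM). Its lowest transgenic heart in E2a, replicate 2, still stood above every E2a-control heart, and it rose by 4.24 ± 0.37 (SE, adjusted p = 0.000488), with 4.64 ± 0.52 in E2a and 3.85 ± 0.50 in Myh6.

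Sprr1a (chr3:92483952-92485895), a small proline-rich protein of the cornified envelope that stressed cardiomyocytes also make, measured 0, 0.0521 and 0 in E2a-control, 2.19, 1.75 and 5.37 in E2a-tg, 0.226, 2.36 and 1.1 in Myh6-control and 24, 25.4 and 28.4 in Myh6-tg hearts. It was near the floor in E2a-control hearts and high in all Myh6-tg hearts, with a Myh6 change of 4.41 ± 0.68. No E2a change is given, since the E2a-control hearts held fewer than 3 counts each. Tnnt3, the fast skeletal troponin T, measured 0.114, 0.208 and 0.217 in E2a-control, 1.63, 2.74 and 4.54 in E2a-tg, 0.249, 1.32 and 1.1 in Myh6-control and 48.7, 7.75 and 5.07 in Myh6-tg hearts, with Myh6-tg replicate 1 far above the other hearts, and rose by 4.33 ± 0.63 (SE, adjusted p = 0.00168). Adam8 (a metalloprotease of leukocytes), Clec4d (a lectin receptor of myeloid cells), Hp (haptoglobin, which binds free haemoglobin) and Gpnmb (a glycoprotein of lysosomes and activated macrophages) had the same high heart, Myh6-tg replicate 1. That heart is also the only one of its group with Y-linked reads, so that sex and its other traits cannot be told apart. Gpnmb measured 1.14, 1.98 and 1.28 in E2a-control, 18.2, 8.74 and 23.5 in E2a-tg, 4.14, 11.2 and 9.09 in Myh6-control and 188, 42.3 and 49.6 in Myh6-tg hearts. Its within-model changes were alike in size, 3.52 ± 0.63 in E2a and 3.52 ± 0.61 in Myh6, although the level in Myh6-tg replicate 1 was over that of the other 2 hearts together. Crct1, Cxcr6, Tchh and Lgals3 were also among the 12, with additive changes of 4.41, 3.94, 3.62 and 3.43. In E2a-control hearts Crct1, Cxcr6 and Tchh reached at most 0.339, 0.808 and 0.521 CPM, so that the size of their changes is uncertain. The call of Crct1 was lost without E2a-tg replicate 3, Myh6-control replicate 3 or Myh6-tg replicate 2. Lgals3, the lectin galectin-3 of macrophages and injured myocardium, measured 3.17, 11 and 3.64 in E2a-control, 87.3, 46.4 and 131 in E2a-tg, 11.5, 91.5 and 42.6 in Myh6-control and 257, 447 and 444 in Myh6-tg hearts. Myh6-control replicate 2, at 91.5, stood above 2 of the E2a-tg hearts, and the 2 groups within each model did not overlap.

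The largest shared falls included Scn4b, the apelin gene Apln, its receptor gene Aplnr and Mylk4. Scn4b (chr9:45138395-45154152), the beta-4 subunit of the cardiac sodium channel, measured 25.8, 17.3 and 15.8 in E2a-control, 3.03, 6.14 and 1.31 in E2a-tg, 39.2, 14.9 and 20.6 in Myh6-control and 1.05, 0.846 and 0.681 in Myh6-tg hearts. The 6 transgenic hearts all lay under the 6 control hearts, and Scn4b fell, with a log2 change of -3.61 ± 0.52 (SE, adjusted p = 0.00166), with -2.48 ± 0.49 in E2a and -4.86 ± 0.56 in Myh6. Apln (chrX:48025146-48034853), the apelin peptide, measured 30.3, 29.6 and 29.5 in E2a-control, 1.53, 8.05 and 1.87 in E2a-tg, 18, 6.5 and 7.15 in Myh6-control and 3.27, 2.06 and 2.21 in Myh6-tg hearts. Its receptor gene Aplnr (chr2:85136225-85139923), expressed in endothelium and heart muscle, measured 72.4, 86.3 and 85.3 in E2a-control, 10.4, 32.8 and 11.1 in E2a-tg, 68.5, 15.8 and 17.2 in Myh6-control and 3.29, 2.95 and 2.57 in Myh6-tg hearts. Ligand and receptor fell together, with log2 changes of -2.52 ± 0.42 (SE, adjusted p = 0.00235) and -2.83 ± 0.45 (SE, adjusted p = 0.00214), and for both E2a-tg replicate 2 was the highest transgenic heart.

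Pdp2, a phosphatase that activates pyruvate dehydrogenase, measured 31.6, 16.2 and 25.1 in E2a-control, 6.02, 12.5 and 4.21 in E2a-tg, 20.8, 11.8 and 10 in Myh6-control and 3.93, 1.56 and 1.59 in Myh6-tg hearts and fell, with a log2 change of -2.12 ± 0.36 (SE, adjusted p = 0.00236). Gpt, alanine aminotransferase, which links alanine with pyruvate, fell, with a log2 change of -2.26 ± 0.52 (SE, adjusted p = 0.0082). Mylk4, a kinase of the myosin light chain kinase family, measured 222, 132 and 194 in E2a-control, 17.4, 85.6 and 11.2 in E2a-tg, 88.6, 66.4 and 92 in Myh6-control and 3.57, 0.152 and 0.492 in Myh6-tg hearts, the steepest fall of the 12 in the additive fit at -3.97 ± 0.91 (SE, adjusted p = 0.00774). In Myh6-tg replicates 2 and 3 it was under 1 CPM, and in E2a-tg replicate 2 it held a level close to the Myh6-control hearts. The other falls of the 12 were Klhdc8a (-2.82), Lrrc15 (-3.54), Itgb6, the integrin beta-6 chain (-3.27), Cpxm2 (-2.28), Pcdh12, a protocadherin of endothelial junctions (-2.02), and Mdga1 (-1.77).

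**Figure D3:**
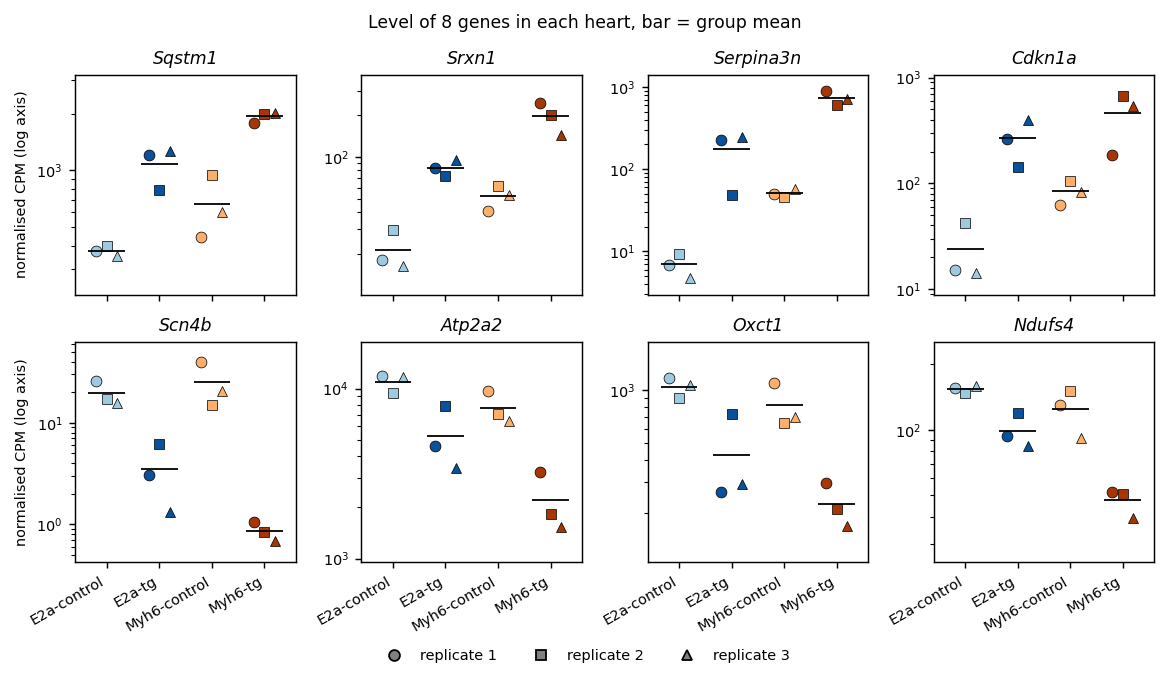
Normalised CPM (log axis) of 4 genes that rose and 4 that fell, in each of the 12 hearts; symbols mark replicate numbers and bars the group means. Serpina3n spans 4.76 to 9.20 in E2a-control and 600 to 884 in Myh6-tg hearts, and E2a-tg replicate 2 lies nearest to its controls for Scn4b, Atp2a2, Oxct1 and Ndufs4.

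Sqstm1 led the genes of inclusions and autophagy. It encodes p62, the receptor that ties ubiquitin-tagged protein to autophagosomes and that marks the polyglycine inclusions. Sqstm1 (chr11:50199366-50210827) measured 375, 399 and 352 in E2a-control, 1210, 785 and 1260 in E2a-tg, 446, 941 and 605 in Myh6-control and 1780, 2000 and 2010 in Myh6-tg hearts. All transgenic hearts of a model lay above its controls, Myh6-control replicate 2 was above the lowest E2a-tg heart, and the rise was 1.53 ± 0.19 (SE, adjusted p = 0.00124), or 1.53 ± 0.26 in E2a and 1.54 ± 0.26 in Myh6. Of the 22 genes of this list, Sqstm1 was the only one called (1 higher, 0 lower, where 3.11% of all genes tested were higher and 2.96% lower), and the list's median of 0.10 lay near the 0.03 of all genes tested. Gabarapl1, which builds autophagosome membranes, and Ubb, a polyubiquitin gene, had an adjusted p of 0.0022 and 0.00585 but log2 changes of 0.74 and 0.64, under the threshold of 1. The receptors Calcoco1 and Tollip had changes of -0.06 and -0.12.

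Of 21 lysosomal genes 6 were higher (3.11% of all genes tested) and 0 lower, with a median of 0.55. Ctss, the cathepsin S of antigen-presenting cells, rose by 1.65, Gla, a hydrolase of glycolipids, by 1.07, and the proton pump subunits Atp6v0d2 and Atp6v1h by 3.52 and 1.01. Gpnmb, given above, was also among the 6. The count was 2 without Myh6-control replicate 1 or 3, 3 without E2a-tg replicate 3 or Myh6-tg replicate 1, and 2 with the replicate block. The summed level of 10 macrophage markers was 212 to 297 CPM in E2a-control and 388 to 506 in E2a-tg hearts. In Myh6 the groups overlapped, at 370 to 579 in Myh6-control and 513 to 955 in Myh6-tg hearts. Only Myh6-tg replicate 1, at 955, stood above all Myh6-control hearts, with 529 and 513 in replicates 2 and 3. Cd68 rose and Timd4, of resident macrophages, fell among these 10 (1 higher, 1 lower, and 0 of each with the replicate block), and the part of macrophages in the lysosomal rise was not tested.

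Small heat-shock proteins accounted for most of the chaperone calls. Of 20 genes, 3 were higher (3.11% of all genes tested) and 0 lower, with a median of 0.29. Hspb1, which holds unfolded protein in solution, measured 197, 276 and 210 in E2a-control, 992, 581 and 1500 in E2a-tg, 250, 1060 and 398 in Myh6-control and 1190, 3490 and 2880 in Myh6-tg hearts and rose by 2.16 ± 0.38 (SE, adjusted p = 0.00264). Its level in Myh6-control replicate 2, at 1060, was close to that of Myh6-tg replicate 1, though the groups did not overlap. Hspb2 rose by 1.09 and Hsp90aa1, an inducible Hsp90, by 1.20, the latter with overlapping hearts. Cryab, which binds desmin filaments, and Hspb7 had changes of 0.89 and 0.75 that did not pass. Of the 20 genes, 12 had a positive and 8 a negative change, and the count of higher genes was 1 without E2a-tg replicate 3, Myh6-control replicate 1 or 3, or Myh6-tg replicate 2. Hspa1a and Hspa1b are near-identical copies, for which reads may be divided between them, and neither was called.

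NRF2 activates genes that remove oxidants. Of 15 of its targets 6 were higher (3.11% of all genes tested), 0 lower, and 14 had a positive change, with a median of 0.98 (0.92 in E2a, 1.06 in Myh6). Srxn1, sulfiredoxin, which repairs overoxidised peroxiredoxin, measured 18, 29.9 and 16.2 in E2a-control, 83, 72.9 and 95.5 in E2a-tg, 40.9, 61.3 and 53.4 in Myh6-control and 246, 202 and 144 in Myh6-tg hearts. The 6 transgenic hearts all lay above the 6 control hearts, and the rise was 1.95 ± 0.18 (SE, adjusted p = 0.000488), with 1.97 ± 0.26 in E2a and 1.93 ± 0.26 in Myh6. Hmox1, heme oxygenase 1, measured 14.1, 17.2 and 11.2 in E2a-control, 56.1, 38.3 and 66.7 in E2a-tg, 18.2, 54.8 and 44 in Myh6-control and 159, 169 and 158 in Myh6-tg hearts and rose by 1.99 ± 0.23 (SE, adjusted p = 0.00124). Gclc and Gclm, both chains of the enzyme that starts glutathione synthesis, rose by 1.72 and 1.42, Txnrd1, thioredoxin reductase, by 1.02 and Gsta4 by 1.09. Gclm measured 35.4, 38.3 and 29.4 in E2a-control, 60.9, 55.5 and 62 in E2a-tg, 36.1, 57.2 and 42.5 in Myh6-control and 187, 194 and 179 in Myh6-tg hearts, and its change was 0.79 and 2.04 in E2a and Myh6, a log2 difference of 1.25 (adjusted p = 0.0134). For Gclc the changes were 0.92 and 2.51. Nqo1, a common reporter of NRF2, had 0.50 and did not pass, and Slc7a11 had 2.20 with an adjusted p of 0.0103. The calls numbered between 4 and 8 when single hearts were left out.

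The integrated stress response slows translation and activates ATF4. Of 15 of its genes tested, 2 were higher (3.11% of all genes tested) and 0 lower. The median was 0.85, with 0.13 in E2a and 1.15 in Myh6. Ppp1r15a, which restores translation by dephosphorylating eIF2-alpha, measured 19.5, 19 and 21.4 in E2a-control, 70.7, 36.8 and 77.6 in E2a-tg, 26.9, 36.5 and 31.4 in Myh6-control and 86.6, 224 and 221 in Myh6-tg hearts and rose by 2.06 ± 0.27 (SE, adjusted p = 0.0013). Atf3 measured 18.8, 16.9 and 10.2 in E2a-control, 64.2, 25.3 and 71.5 in E2a-tg, 9.64, 29.4 and 24.2 in Myh6-control and 36.7, 124 and 96.6 in Myh6-tg hearts and rose by 1.92 ± 0.36 (SE, adjusted p = 0.0033). Atf4 itself reached 0.96 with an adjusted p of 0.00216, just under the fold threshold. None of the 8 genes for amino acid and one-carbon enzymes, which ATF4 activates, was called, and their median was -0.12 in E2a and 0.94 in Myh6. The count of the list was 1 without E2a-tg replicate 3 and 5 without E2a-tg replicate 2. Targets of p53 rose in 4 of 14 cases (3.11% of all genes tested were higher) and fell in none, with a median of 0.71. Cdkn1a, the cyclin-dependent kinase inhibitor p21, measured 15.2, 42 and 14.2 in E2a-control, 263, 143 and 398 in E2a-tg, 62.6, 106 and 83 in Myh6-control and 184, 667 and 544 in Myh6-tg hearts and rose by 2.98 ± 0.42 (SE, adjusted p = 0.00155). Phlda3, Trp53inp1 and Gtse1 rose by 1.39, 1.52 and 1.83. The p53 count was 2 without any 1 of the E2a-control hearts, E2a-tg replicate 1 or 3, Myh6-control replicate 1, or Myh6-tg replicate 2 or 3, and 2 with the replicate block.

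Immediate early genes rose in 6 of 16 cases (3.11% of all genes tested were higher), and all 16 had a positive change, with a median of 0.91. Junb, a chain of the AP-1 factor, measured 19.5, 24.6 and 20.3 in E2a-control, 84.6, 39.1 and 73.3 in E2a-tg, 26.3, 42.8 and 39.6 in Myh6-control and 126, 80.9 and 79.1 in Myh6-tg hearts and rose by 1.50 ± 0.20 (SE, adjusted p = 0.00131). Maff, a small MAF factor that pairs with NRF2, rose by 1.44 ± 0.16 (SE, adjusted p = 0.00104) and Myc by 1.76 ± 0.24 (SE, adjusted p = 0.00147), each with no overlap between the groups of a model. Fos rose by 1.57, Egr2 by 1.80 and Btg2 by 1.46.

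Promoter sequences of 6 genes that rose are shown because they hold the letters that AP-1, NRF2 or ATF4 are known to bind. They are the 150 bases before the transcription start from RefSeq (GRCm38.p6), 5′ to 3′ on the strand of the gene, with matches in capitals to TGANTCA (AP-1), TGACNNNGC (NRF2) or TGATGNAAN (ATF4) on either strand.
Srxn1 (chr2:152105374-152105523, plus strand): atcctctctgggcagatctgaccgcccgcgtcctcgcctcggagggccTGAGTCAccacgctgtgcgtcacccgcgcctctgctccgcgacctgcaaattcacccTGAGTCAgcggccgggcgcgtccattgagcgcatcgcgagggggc
Gclm (chr3:122245407-122245556, plus strand): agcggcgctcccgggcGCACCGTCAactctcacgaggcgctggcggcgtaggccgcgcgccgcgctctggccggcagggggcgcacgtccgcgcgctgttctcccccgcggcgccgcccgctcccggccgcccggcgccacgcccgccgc
Sprr1a (chr3:92485882-92486031, minus strand): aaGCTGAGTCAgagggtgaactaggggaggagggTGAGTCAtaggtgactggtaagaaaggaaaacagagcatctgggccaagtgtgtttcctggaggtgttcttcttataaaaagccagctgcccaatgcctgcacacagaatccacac
Mmp3 (chr9:7445672-7445821, plus strand): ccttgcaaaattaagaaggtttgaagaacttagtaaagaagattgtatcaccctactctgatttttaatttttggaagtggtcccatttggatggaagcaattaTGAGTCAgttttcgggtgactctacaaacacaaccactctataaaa
Xirp2 (chr2:67445852-67446001, plus strand): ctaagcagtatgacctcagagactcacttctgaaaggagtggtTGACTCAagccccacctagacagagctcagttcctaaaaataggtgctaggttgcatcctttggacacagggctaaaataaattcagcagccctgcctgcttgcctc
Atf3 (chr1:191183334-191183483, minus strand): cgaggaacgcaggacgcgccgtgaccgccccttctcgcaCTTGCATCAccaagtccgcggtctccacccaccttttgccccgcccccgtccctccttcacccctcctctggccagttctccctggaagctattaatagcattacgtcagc
Srxn1 held 2 AP-1 matches, which begin at positions -102 and -45 from the start, Sprr1a one at -116 and one at -146 inside an NRF2 match at -148, Mmp3 one at -46 and Xirp2 one at -107. Gclm held an NRF2 match at -134 and Atf3 an ATF4 match at -111.

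The same letters were counted in windows of 300 bases, from 250 before to 50 after the start, for the 11318 tested genes with a window (the first one where RefSeq lists several). TGANTCA occurred in 9.52% of 315 windows of higher genes, 4.08% of 319 windows of lower genes and 5.27% of all windows. TGACNNNGC occurred in 18.1%, 14.4% and 14.7%, and TGATGNAAN in 3.49%, 3.45% and 2.25%. The letters of the first 2 motifs can overlap, as in Sprr1a. These shares are a description of sequence, and binding was not measured.

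Of 21 cardiac stress genes 10 were higher (3.11% of all genes tested) and 0 lower, with a median of 1.67 (1.44 in E2a, 1.63 in Myh6). The calls were 9 of 13 genes of the stretch and stress response and, of 6 fetal contractile genes, Myl4. Timp1 and Spp1 were among the 9, and Timp1 is also counted among the matrix genes below. The cells that made these RNAs were not identified. Xirp2, an actin-binding protein of the intercalated disc, measured 154, 181 and 149 in E2a-control, 477, 288 and 664 in E2a-tg, 222, 336 and 406 in Myh6-control and 719, 1180 and 1390 in Myh6-tg hearts and rose by 1.67 ± 0.23 (SE, adjusted p = 0.00147). Flnc, filamin C of the Z-disc, rose by 1.78 ± 0.23 (SE, adjusted p = 0.00124), Fhl1, a LIM protein that senses stretch, by 2.33, Ankrd1 by 1.54 and Des, desmin, by 1.60. Tnfrsf12a, the receptor of the cytokine TWEAK, measured 19.9, 27.4 and 18.1 in E2a-control, 107, 51.2 and 130 in E2a-tg, 46.4, 77.7 and 35.5 in Myh6-control and 146, 266 and 215 in Myh6-tg hearts and rose by 2.06 ± 0.26 (SE, adjusted p = 0.00124). Nppa, the atrial natriuretic peptide, had a change of 1.99 with an adjusted p of 0.0104, and its hearts did not overlap in either model. Nppb, Myh7 and Acta1 had 1.06, 1.24 and -0.24 and did not pass. Between 7 and 11 genes of the list were called when single hearts were left out, and 5 with the replicate block.

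Contraction and calcium cycling genes fell in 7 of 26 cases (2.96% of all genes tested were lower) and rose in none. The median was -0.37, with -0.54 in E2a and -0.12 in Myh6, so that the list as a whole moved less in Myh6. Atp2a2 (chr5:122453513-122502225), the calcium pump SERCA2 that refills the sarcoplasmic reticulum, measured 11800, 9410 and 11700 in E2a-control, 4580, 7900 and 3400 in E2a-tg, 9680, 7090 and 6430 in Myh6-control and 3240, 1840 and 1530 in Myh6-tg hearts. E2a-tg replicate 2 was the highest transgenic heart, still under its controls, and Atp2a2 fell, with a log2 change of -1.43 ± 0.28 (SE, adjusted p = 0.00402), with -1.05 ± 0.36 in E2a and -1.81 ± 0.37 in Myh6. Myl3, the ventricular essential light chain, measured 4840, 4400 and 5120 in E2a-control, 2530, 3550 and 1950 in E2a-tg, 4040, 4620 and 2840 in Myh6-control and 1210, 1040 and 680 in Myh6-tg hearts and fell, with a log2 change of -1.41 ± 0.27 (SE, adjusted p = 0.00354). Myh6 (alpha myosin heavy chain, -1.97), Tnni3 (cardiac troponin I, -1.56), Myl2 (-1.33), Mylk4 and Hrc, a calcium-binding protein of the reticulum (-2.39), were the other falls. Other sarcomere genes had changes near 0, such as Ttn (-0.07), Myom2 (-0.03) and Tnnt2 (0.27). The count was 0 with the replicate block, 0 without E2a-tg replicate 3 or Myh6-tg replicate 2, and 2 or 3 without any other single heart except E2a-control replicate 2, E2a-tg replicate 2 (7 each) and Myh6-tg replicate 1 (5).

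Ion channel genes fell in 6 of 37 cases (2.96% of all genes tested were lower) and rose in none. The change was negative in 32, with a median of -0.81 (-0.56 in E2a, -1.18 in Myh6). Abcc9, the regulatory subunit of the ATP-sensitive potassium channel, measured 334, 286 and 337 in E2a-control, 166, 238 and 157 in E2a-tg, 336, 265 and 271 in Myh6-control and 78, 62.3 and 71.9 in Myh6-tg hearts and fell, with a log2 change of -1.40 ± 0.23 (SE, adjusted p = 0.00216), made of -0.77 ± 0.18 in E2a and -2.04 ± 0.19 in Myh6. Scn4b, Cacna1s, the skeletal calcium channel chain (-3.15), Scn4a, the skeletal sodium channel (-2.12) and Hcn4, the pacemaker channel (-1.44), were also among the 6. Cacna1s measured 0.47, 0.174 and 0 in Myh6-tg hearts, and its call held in 4 of the 12 fits with 1 heart left out. Among the 19 potassium and pacemaker channel genes 18 had a negative change, with a median of -1.04. The count was 14 without E2a-tg replicate 2 and 10 without Myh6-tg replicate 1. It was 2 with the replicate block and 2 without E2a-control replicate 1, E2a-tg replicate 3, Myh6-control replicate 1 or 3, or Myh6-tg replicate 2, and 3 without E2a-control replicate 3, E2a-tg replicate 1 or Myh6-tg replicate 3.

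Nuclear genes of the respiratory chain had negative changes in 78 of 78 cases, of which 8 passed both thresholds (2.96% of all genes tested were lower). Their median was -0.71, made of -0.31 in E2a and -1.12 in Myh6, against 0.03 over all genes. Ndufs4, a complex I subunit, measured 156, 148 and 159 in E2a-control, 93.7, 120 and 84 in E2a-tg, 130, 151 and 92.1 in Myh6-control and 52, 50.7 and 39.6 in Myh6-tg hearts. The groups did not overlap in either model, and Ndufs4 fell, with a log2 change of -1.01 ± 0.17 (SE, adjusted p = 0.00256), with -0.64 ± 0.19 in E2a and -1.39 ± 0.20 in Myh6. Ndufb2, Ndufs1, Ndufs8, Ndufab1 and Ndufb10 of complex I, Cox7a1 of complex IV and Atp5g1 of ATP synthase were the other calls, between -1.06 and -1.95. Cox7a1, the muscle isoform, measured 62.5, 69.4 and 75.2 in E2a-control, 37.2, 50.8 and 27.6 in E2a-tg, 56.7, 79.8 and 39.4 in Myh6-control and 6.83, 7.79 and 6.21 in Myh6-tg hearts, and its change was -0.84 and -3.08 in E2a and Myh6, a log2 difference of -2.24 (adjusted p = 0.0089). The count was 1 without E2a-tg replicate 3 or Myh6-tg replicate 2, 3 without Myh6-control replicate 1 or Myh6-tg replicate 3, 4 without Myh6-control replicate 2 and 5 without E2a-control replicate 3. It was 2 with the replicate block, and on the FPKM scale 3, with a median of -0.42.

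Cox4i1, Cyc1 and Cox5a, respiratory chain genes that the study also measured by other assays, were not called. Cyc1, cytochrome c1, measured 718, 649 and 739 in E2a-control, 456, 605 and 400 in E2a-tg, 595, 672 and 396 in Myh6-control and 306, 213 and 160 in Myh6-tg hearts and had -0.91 ± 0.21 (SE, adjusted p = 0.00879), so that it passed the adjusted p but not the fold threshold. Cox4i1 measured 1150, 1120 and 1340 in E2a-control, 1100, 1160 and 863 in E2a-tg, 1040, 1450 and 782 in Myh6-control and 619, 486 and 352 in Myh6-tg hearts, with overlap in E2a, and had -0.69 ± 0.23 (SE, adjusted p = 0.0385). Cox5a had -0.74 ± 0.22 (SE, adjusted p = 0.024), with no overlap of the hearts of a model. The within-model changes of the 3 genes were between -0.21 and -0.53 in E2a and between -1.12 and -1.29 in Myh6.

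The mitochondrial genome encodes 13 proteins, and their genes all had negative changes, with a median of -0.91. Of them mt-Nd4l and mt-Nd3 were called (2.96% of all genes tested were lower). mt-Nd4l measured 2760, 2230 and 2460 in E2a-control, 1550, 1880 and 1370 in E2a-tg, 3110, 1670 and 2400 in Myh6-control and 974, 780 and 742 in Myh6-tg hearts and fell, with a log2 change of -1.08 ± 0.22 (SE, adjusted p = 0.00428). For mt-Nd3 the change in E2a was -0.38 with an unadjusted p of 0.08865 (edgeR, 3 against 3 hearts), and the additive call rests on the Myh6 hearts, where it was -1.88. Hearts did not overlap in either model, with lower transgenic hearts, for any of the 13 genes, against 9.39% of all genes tested. Neither gene was called with the replicate block, without E2a-tg replicate 3, Myh6-control replicate 1, Myh6-tg replicate 2 or Myh6-tg replicate 3, or on the FPKM scale.

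Of 43 genes of fat and ketone use 10 fell (2.96% of all genes tested were lower) and 0 rose, with a median of -0.87, which was -0.17 in E2a and -1.37 in Myh6. Oxct1, which activates ketone bodies for oxidation, measured 1170, 894 and 1070 in E2a-control, 266, 728 and 293 in E2a-tg, 1100, 653 and 706 in Myh6-control and 298, 213 and 170 in Myh6-tg hearts and fell, with a log2 change of -1.57 ± 0.27 (SE, adjusted p = 0.00261). Dgat2, which makes triglyceride, measured 506, 329 and 454 in E2a-control, 180, 259 and 144 in E2a-tg, 246, 277 and 235 in Myh6-control and 41.2, 34.5 and 28.4 in Myh6-tg hearts and fell, with a log2 change of -1.14 ± 0.23 in E2a and -2.86 ± 0.25 in Myh6 (additive adjusted p = 0.00197). Cpt2, Acsl1, Acads, Hadh, Hadhb, Echs1 and Etfdh of fatty acid entry and oxidation, and Acat1, of ketone use, were the others, between -1.08 and -1.33. For 16 of the 43 genes the 2 models differed at an adjusted p under 0.05, Dgat2, Cpt2, Acsl1, Hadh, Hadhb and Acat1 among them. The changes in E2a and Myh6 were -0.63 and -2.03 for Cpt2, -0.58 and -1.85 for Acsl1, -0.47 and -1.99 for Hadh, -0.39 and -1.86 for Hadhb and -0.52 and -2.05 for Acat1. The fat and ketone count was 2 with the replicate block, 2 without E2a-tg replicate 3 or Myh6-tg replicate 2, 4 without Myh6-control replicate 1, 5 without Myh6-tg replicate 3, and 3 on the FPKM scale, with a median of -0.56.

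Among genes of the TCA cycle, pyruvate oxidation and glycolysis 6 of 37 fell and 1 rose (2.96% and 3.11% of all genes tested). The median was -0.85 over the 14 TCA enzymes and -0.86 over the 8 genes of pyruvate oxidation, all of which had a negative change, and -0.10 over the 15 glycolysis genes, with -0.54 in E2a, 0.41 in Myh6 and a positive additive change in 7. Hk2, hexokinase 2, measured 219, 144 and 220 in E2a-control, 67, 122 and 67.7 in E2a-tg, 168, 150 and 151 in Myh6-control and 73.1, 64.1 and 53.5 in Myh6-tg hearts and fell, with a log2 change of -1.24 ± 0.17 (SE, adjusted p = 0.00147), as did Eno3, the muscle enolase (-1.57), Pfkm (-1.07), Pgam2 (-1.31), Dlst (-1.07) and Idh3b (-1.24). Slc2a1, the glucose transporter GLUT1, rose by 1.01, made of 0.36 ± 0.21 in E2a and 1.64 ± 0.21 in Myh6. It was not called with RLE factors, without the mt- genes, with the replicate block or without any 1 of the Myh6 hearts, E2a-control replicate 1 or 2, or E2a-tg replicate 3, and 0 of the 15 glycolysis genes were higher with an unadjusted p under 0.05 in each model. The falls of TCA and glycolysis genes numbered 1 to 3 without any single heart except E2a-control replicate 2, E2a-tg replicate 2 and Myh6-tg replicate 1, without which they were 7, 9 and 12, and 3 with the replicate block and 2 on the FPKM scale.

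Cardiomyocyte markers fell as well. Of 10 markers 6 were lower (2.96% of all genes tested), namely Myh6, Tnni3, Myl2, Myl3, Mb and Ckm, and 0 higher, and the median of the 10 was -1.48. Myh6, Tnni3, Myl2 and Myl3 are also among the 7 falls of contraction and calcium cycling given above, so that they are counted in both lists. The summed level of the 10 markers was 54600 to 64100 CPM in E2a-control, 25600 to 47100 in E2a-tg, 40500 to 57000 in Myh6-control and 10600 to 32100 in Myh6-tg hearts. Tnnt2 and Actc1, also cardiomyocyte markers, had 0.27 and -0.81 and were not called. The count of 6 was 0 with the replicate block and 0 to 3 without any single heart except E2a-control replicate 2, E2a-tg replicate 2 (6 each) and Myh6-tg replicate 1 (5). In RNA of whole hearts, fewer cardiomyocytes and less of these RNAs per cardiomyocyte cannot be told apart. Endothelial markers gave 0 calls of 10, with a median of -0.28 that was 0.02 on the FPKM scale. Erythroid markers fell in 2 of 7 genes (2.96% of all genes tested were lower), Hbb-bs and Hbb-bt, which are near-identical copies. The median of the 7 was -1.51, with summed levels of 1540 to 2610 in E2a-control, 198 to 1270 in E2a-tg, 5220 to 8150 in Myh6-control and 1870 to 3450 in Myh6-tg hearts. Neither Hbb-bs nor Hbb-bt was called when any 1 heart other than E2a-tg replicate 2 was left out.

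**Figure D4:**
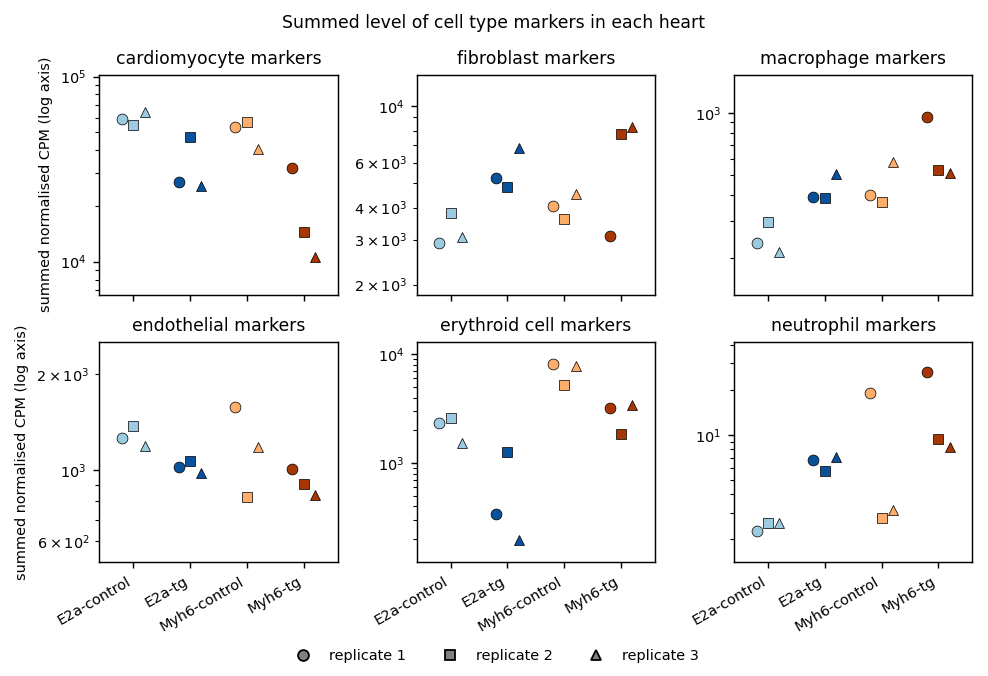
Summed normalised CPM (log axis) of the markers of 6 cell types in each heart, with symbols for replicate numbers. Cardiomyocyte markers are lower in all transgenic hearts than in the controls of their model (25600 to 47100 against 54600 to 64100 CPM in E2a), erythroid markers as well, and Myh6-tg replicate 1 is the lowest of its group for fibroblast (3100) and the highest for macrophage markers (955).

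Extracellular matrix genes rose in 21 of 60 cases (3.11% of all genes tested were higher) and fell in none, with a median of 1.29, made of 0.74 in E2a and 1.96 in Myh6. Ctgf, a matricellular protein induced by TGF-beta, rose by 2.73, from a mean of 94.3 to 372 CPM in E2a and from 213 to 2363 CPM in Myh6. Thbs1, thrombospondin 1, measured 11.7, 20.9 and 7.96 in E2a-control, 52.7, 32.7 and 61 in E2a-tg, 29.9, 27.3 and 44.5 in Myh6-control and 365, 230 and 297 in Myh6-tg hearts and rose by 2.50 ± 0.32 (SE, adjusted p = 0.00124). Mmp3, stromelysin 1, measured 2.87, 0.808 and 1.5 in E2a-control, 23.8, 4.05 and 11.8 in E2a-tg, 9.77, 4.56 and 4.76 in Myh6-control and 81.7, 102 and 92.7 in Myh6-tg hearts and rose by 3.41 ± 0.44 (SE, adjusted p = 0.00124). Collagens were called in 5 of 17 cases, Col1a1 (1.47), Col1a2 (1.43), Col5a2 (1.87), Col8a1 (1.62) and Col16a1 (1.47), all with overlapping hearts in E2a. The changes in E2a and Myh6 were 0.63 and 3.10 for Col5a2 and 0.62 and 2.61 for Col8a1. Tgfb2, a TGF-beta ligand, had 2.30 and 2.12 in E2a and Myh6, and Timp1, an inhibitor of matrix proteases, 3.36 and 2.02.

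Lox, which crosslinks collagen, measured 7.17, 4.27 and 6.17 in E2a-control, 23.2, 13 and 30.6 in E2a-tg, 9.12, 11.9 and 10.6 in Myh6-control and 460, 590 and 645 in Myh6-tg hearts. It rose in both models, by 1.92 ± 0.29 in E2a and 5.74 ± 0.34 in Myh6, and the 2 changes differed by 3.82 (adjusted p = 0.0015). For 17 of the 60 matrix genes the models differed at an adjusted p under 0.05. Of 10 fibroblast markers 2 were higher (3.11% of all genes tested), Col1a1, which is also a matrix gene of the list, and Mfap5. The median of the 10 was 0.83, and their summed level was 2920 to 3820 CPM in E2a-control, 4820 to 6820 in E2a-tg, 3620 to 4500 in Myh6-control and 3100 to 8280 in Myh6-tg hearts. The lowest, Myh6-tg replicate 1, was under all Myh6-control hearts, whereas Thbs1, Mmp3 and Lox in that heart were above them. Neither marker was called with the replicate block or without E2a-tg replicate 3 or Myh6-control replicate 1 or 3. Pdgfra and Tcf21, which mark fibroblasts without being matrix, had 0.86 (adjusted p = 0.00502) and 0.30 and were not called. The matrix count was 4 with the replicate block, 6 without Myh6-control replicate 3, 7 without E2a-tg replicate 3, 9 without Myh6-control replicate 1, 12 without Myh6-tg replicate 2, 13 without Myh6-control replicate 2 or Myh6-tg replicate 3, and 33 on the FPKM scale, and the part of fibroblast number in it was not tested.

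Complement genes rose in 3 of 17 cases (3.11% of all genes tested were higher), none fell, and 16 had a positive change, with a median of 0.79 (1.14 in E2a, 0.37 in Myh6). Serping1, the C1 inhibitor, measured 142, 159 and 130 in E2a-control, 351, 219 and 395 in E2a-tg, 239, 243 and 215 in Myh6-control and 396, 457 and 442 in Myh6-tg hearts and rose by 1.03 ± 0.15 (SE, adjusted p = 0.0016). C4b rose by 1.50 ± 0.30 (SE, adjusted p = 0.00428). Transgenic hearts lay above the controls in both models without overlap for 7 of the 17 genes, the 3 that rose among them (7.83% of all genes tested lay so). The count of called genes was 1 without E2a-control replicate 3 or E2a-tg replicate 3. C4b shares most of its sequence with the gene C4a, whose reads may be counted on it.

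**Figure D5:**
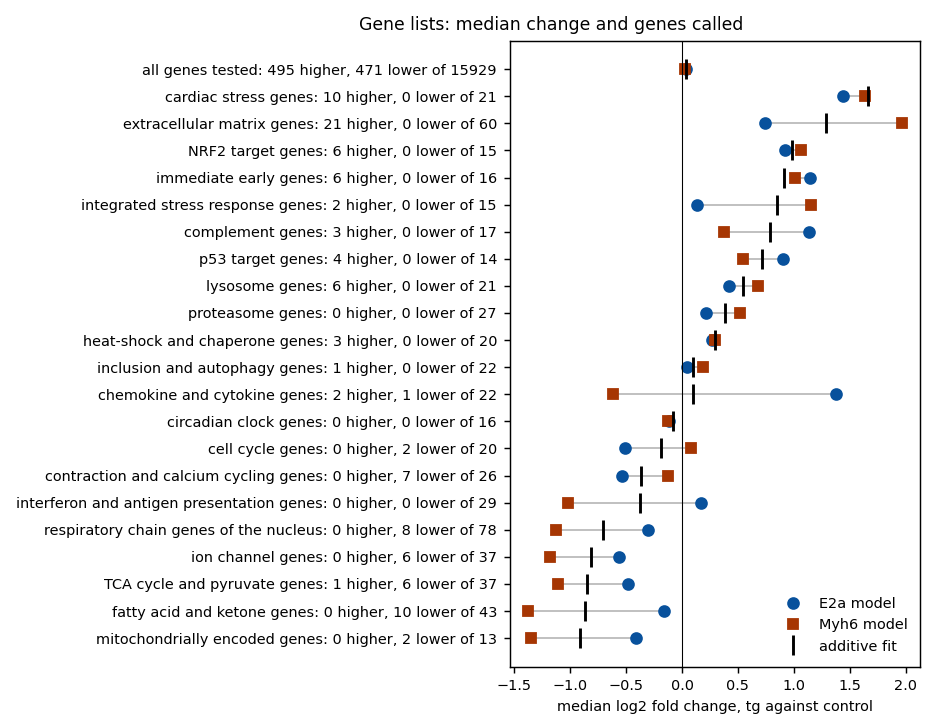
Median log2 fold change of the tested genes of 21 lists in E2a (circles), in Myh6 (squares) and in the additive fit (bars), with the number of genes called beside each name and all 15929 genes on top. Cardiac stress, NRF2 and immediate early genes had like medians in both models, whereas matrix, fat oxidation and respiratory chain genes had larger ones in Myh6.

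Cell cycle genes held 2 shared falls of 20 (2.96% of all genes tested were lower), Ccnd1 and Ccnd2, cyclins that carry cells from G1 towards S phase. Ccnd1 measured 89.1, 91.4 and 90.9 in E2a-control, 19.7, 52.4 and 27.3 in E2a-tg, 117, 56.9 and 86 in Myh6-control and 27.7, 25.4 and 28.9 in Myh6-tg hearts and fell, with a log2 change of -1.56 ± 0.22 (SE, adjusted p = 0.00166). Ccnd2 measured 86.5, 90.8 and 96.8 in E2a-control, 37.8, 64.6 and 37 in E2a-tg, 72.1, 54.3 and 78 in Myh6-control and 18.4, 17.9 and 21.1 in Myh6-tg hearts and fell, with a log2 change of -1.40 ± 0.19 (SE, adjusted p = 0.00147). E2a-tg replicate 2 was again the highest transgenic heart for both cyclins, and no heart of a group overlapped with its controls. The median of the list was -0.19, and 0.11 on the FPKM scale.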

How the data were processed

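RNA-seq of 12 mouse hearts was analysed from the deposited count table, which holds whole numbers of reads for each gene without normalization, and, as an alternative, from the FPKM values that the authors computed. The paper gives HISAT2 and GRCm38, and the submitters' processing notes list HISAT2 2.0.4, StringTie 2.2.1 and DESeq2 as well as the builds mm10 and GRCm39. The counting program is not given in the sources used here, and unequal counting of overlapping genes or copies could move their values. The transcript of the human transgene was not analysed here.

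Hearts were grouped by their titles. Genes were filtered by filterByExpr and tested by glmQLFTest of edgeR 4.0.16 (R 4.3.3) after TMM, with model and genotype as terms for all 12 hearts, and with 4 group means for changes within models, whose larger p gave the both-models test. SEs were taken as the fold change over the root of its F statistic. Levels are CPM of the TMM-scaled total, and 3 counts were the floor, which covers counting error only. Alternatives used DESeq2 1.42.0 and limma 3.58.1 on log2 FPKM. The scripts were tested on simulated data.

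The comparison, the 21 gene lists, the markers and the rules for named genes were chosen with earlier results of these data known. The written rule named the 12 largest rises and falls, and up to 3 members of a list, among genes that the both-models test called. As it called 0 genes, an unadjusted p under 0.05 in each model (for the first) and a call in the additive fit (for the second) took its place after the values were seen, with a mean of at least 5 CPM for the first. It also named Sqstm1, Cox4i1, Cyc1, Cox5a and Esr1, the 4 called genes that differ most between models, and the 4 of opposite sign with the lowest p of that difference. Gt(ROSA)26Sor, also in the rule, was not analysed here, and some named genes are not reported here. Other list members were named after their values were seen. Promoters are from RefSeq, and 11318 of 14606 gene symbols had one. Positions are from GENCODE M21, which holds 22022 of 22036 Ensembl identifiers.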

Additional observations from a re-analysis of the deposited data

Results flagged for a closer look

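Among genes named by rule and called members of the lists, 26 changed by different amounts in the 2 models at an adjusted p under 0.05 (edgeR's quasi-likelihood test of the Myh6 change minus the E2a change, adjusted over all genes tested), and the values below are these log2 differences. Some of the 26 were named for this difference itself, Lox, Cthrc1 and Ky for its size and Esr1, Ddah1, Ppic and Prss23 for its low p. For these genes the difference is no separate result.

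Esr1 differed by -10.23 (adjusted p = 9.89e-05), from 0.28 in E2a and -9.95 in Myh6. Among genes with a positive difference, Cthrc1, a secreted protein of collagen-making fibroblasts, had 4.62 (adjusted p = 0.00862), Lox 3.82 (adjusted p = 0.0015), Gclm 1.25 (adjusted p = 0.0134) and Atp6v1h 0.90 (adjusted p = 0.0483), and each rose in both models. Gclc had 1.59 (adjusted p = 0.0191), Slc2a1 1.28 (adjusted p = 0.0312), and the matrix genes Col5a2 2.47 (adjusted p = 0.00947), Col8a1 1.99 (adjusted p = 0.0442), Thbs2 1.86 (adjusted p = 0.00582) and Loxl1 1.26 (adjusted p = 0.0474). Cthrc1 was under 1 CPM in all E2a hearts, with 0.838, 0.755 and 0.98 CPM in E2a-tg, and reached 8.5 to 24 CPM in Myh6-tg hearts.

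Among genes that fell in both models and fell further in Myh6, Ky, a protein of the muscle Z-disc, had -3.67 (adjusted p = 0.00713), Cox7a1 -2.24 (adjusted p = 0.0089), Cxcl9 -2.04 (adjusted p = 0.0476), Dgat2 -1.72 (adjusted p = 0.0143), mt-Nd3 -1.50 (adjusted p = 0.0152), Cpt2 -1.40 (adjusted p = 0.0188) and Abcc9 -1.27 (adjusted p = 0.0189). Of the called list members, Acsl1 had -1.26 (adjusted p = 0.022), Hadh -1.51 (adjusted p = 0.0228), Hadhb -1.47 (adjusted p = 0.0244), Acat1 -1.53 (adjusted p = 0.0112) and Mb, myoglobin, -1.76 (adjusted p = 0.0459). For mt-Nd3, Hadh and Hadhb the E2a change did not reach an unadjusted p of 0.05.

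The changes were opposite in sign for 3 further genes. Ddah1, which breaks down an inhibitor of nitric oxide synthase, measured 8.2, 5.79 and 6.79 in E2a-control, 2, 2.98 and 1.4 in E2a-tg, 5.43, 5.51 and 5.35 in Myh6-control and 16.2, 22.2 and 25.7 in Myh6-tg hearts (normalised CPM), a change of -1.70 in E2a and of 1.97 in Myh6, with a difference of 3.67 (adjusted p = 0.00114). Its additive change was 0.18 ± 0.63 (SE, adjusted p = 0.857). Ppic and Prss23 had differences of 2.13 (adjusted p = 0.00114) and 2.16 (adjusted p = 0.0015), with changes of -0.22 each in E2a, neither past an unadjusted p of 0.05, and of 1.91 and 1.95 in Myh6.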

How the results depend on the processing

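The number of genes called in the additive fit (966, with 495 higher and 471 lower) was 956 with RLE factors, 1034 without a filter, 978 with a filter at 1 CPM in 3 or more hearts, 939 without the mt- genes, 868 without NewGene loci, and, chosen after seeing the data, 1262 with the bias-adjusted quasi-likelihood and 977 with a sex term. It was 1713 (900 and 813) at an adjusted p under 0.05, 107 (81 and 26) by glmTreat against 0.5, 1645 (817 and 828) with DESeq2, and 0 without the model term, where 5850 genes had an unadjusted p under 0.05 and 0 were higher or lower. limma on log2(FPKM + 1) gave 602 higher and 188 lower, on log2(FPKM + 0.1) 1040 higher, and without a filter 613 (148 lower). Leaving out one heart gave 404 to 1305 genes, 219 to 616 higher and 185 to 689 lower. The both-models test (0 genes) called 8 with the bias-adjusted quasi-likelihood, 25 without a filter, 530 with DESeq2, 43 and 76 with limma on FPKM with 1 and 0.1 added, 0 at the lowest and 316 at the highest with one heart left out. Genes with an unadjusted p under 0.05 in each model (1084 higher, 1045 lower) were 2019, 2125 and 2081 higher and 547, 514 and 575 lower under the 3 FPKM settings, and 602 to 1337 higher and 552 to 1565 lower with one heart left out. Of the 71 called genes that were named by rule, none changed sign under these alternatives.

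With the replicate number as a block within model, 426 genes were called (219 higher, 207 lower), 408 of them among the 966, and 22 of the 71 called named genes were no longer called. This number also carries sex, since replicate 1 alone had Y-linked reads in each group. Pairing beyond that was looked at with the Y-linked genes left out. In E2a it was not seen, as deviations of same-numbered hearts correlated at 0.0123, -0.0827 and -0.0633. In Myh6 the values were 0.268, 0.177 and 0.165 and each heart correlated best with its own number, a hint from the data only. The causes of these shifts were not tested, and fewer than 12 hearts also leave fewer residual degrees of freedom.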

Other observations

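Genes of interferon response and antigen presentation held no gene that was called. Of 29 genes tested 0 were called in either direction by edgeR, 0 had an unadjusted p under 0.05 in each model with the same sign, and the median was 0.17 in E2a and -1.02 in Myh6. Chemokine and cytokine genes had medians of 1.38 in E2a and -0.61 in Myh6. Of 22, 2 were called higher and 1 lower (3.11% and 2.96% of all genes tested), or 1 and 0 with the replicate block. Ccl6, a chemokine of myeloid cells, measured 13.3, 19.4 and 12.9 in E2a-control, 60.3, 37.7 and 70.6 in E2a-tg, 42.3, 37.2 and 64.6 in Myh6-control and 141, 82.3 and 68.5 in Myh6-tg hearts (normalised CPM) and rose by 1.45 ± 0.25 (SE, adjusted p = 0.00269). Cxcr6, the receptor of Cxcl16, rose by 3.94 ± 0.58 (SE, adjusted p = 0.0017), and Cxcl9, an interferon-induced chemokine, measured 13.4, 15.5 and 11.6 in E2a-control, 5.99, 7.15 and 4.7 in E2a-tg, 15, 8.93 and 5.05 in Myh6-control and 0.875, 1.48 and 0.757 in Myh6-tg hearts and fell, with a log2 change of -2.16 ± 0.40 (SE, adjusted p = 0.00325), made of -1.18 ± 0.36 in E2a and -3.22 ± 0.39 in Myh6. Neutrophil markers gave 0 calls of 6, T and NK cell markers 0 of 9 and B cell markers 0 of 7, each at summed levels of at most 26.2, 8.96 and 6.13 CPM in any heart.

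Proteasome genes had a positive change in 26 of 27 cases with a median of 0.38, and none passed the fold threshold. Hearts did not overlap in either model for 14 of the 27, against 7.83% of all genes tested. Circadian clock genes gave 0 calls of 16, at a median of -0.08, or 0.28 on the FPKM scale. Atrial markers were called higher in 2 of 7 genes (3.11% of all genes tested), Myl4, which is also a cardiac stress gene given above, and Dkk3, and in 1 with the replicate block. Mural cell markers gave 1 higher, Cnn1, a calponin of smooth muscle that rose by 4.34 ± 0.73 (SE, adjusted p = 0.00239) with overlapping hearts in Myh6, and 1 lower, Abcc9, which was not called with the replicate block, while Rgs5 and Pdgfrb, which mark pericytes, had -0.31 and 0.22. Adipocyte and Schwann cell markers gave 0 calls of 5 and of 7, and brain markers 0 calls of the 4 that could be tested.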
